A study of Mus musculus with 12 samples.

Results

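Pre-BMPs are bone marrow progenitors on the path to basophils and mast cells, and they were set here against the cells on either side of them in the sorting scheme, Pro-BMPs before and mature basophils after. For every gene, the Pre-BMP mean minus 0.5 times the sum of the Pro-BMP and basophil means was tested on the deposited log2 values. The genes described are those whose 3 Pre-BMP values all lay above, or all below, all 6 values of the neighbours. They numbered 1181 of the 14560 listed genes (8.11%): 620 above both neighbours (4.26%) and 561 below both (3.85%). RNA had been sequenced from 12 libraries, 3 for each of 4 populations of C57BL/6 mouse bone marrow, and 9 of them enter the choice of genes.

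Per the labels, Pre-BMPs were c-Kit+ Sca1- CD34+ CD16/32+ cells with FceRIa, the ligand-binding chain of the IgE receptor, and without surface E-cadherin (CDH1). Pro-BMPs carried CDH1 and lacked FceRIa within the same progenitor gate, and DN-GMPs lacked both. All 3 progenitor gates left out cells with B220, CD3, Ter119, CD11b or Gr1. Basophils were c-Kit- Sca1- cells with CD49b and FceRIa, without B220, CD4, CD8a or Ter119. The series describes 3 untreated mice and independent triplicates. The labels do not tie a replicate number to a mouse, so the spread behind every p-value is that between libraries and may be technical. Cells were sorted in 2 rounds, and in such bulk samples fewer cells of a type and less RNA per cell cannot be told apart.

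Basophils and mast cells are granulocytes that store histamine and proteases in granules and release them when an allergen cross-links IgE on the FceRI receptor. Mast cells finish their development in tissues, where they are filled with tryptases, chymases and carboxypeptidase, while mouse basophils carry another set of serine proteases, Mcpt8 and Prss34 among them. GATA and C/EBP factors take part in this choice, and GATA1 together with KLF1 drives red cell genes. The RNA followed the sorting gate for Fcer1a and not for Cdh1. Fcer1a RNA stood at 458 ± 31.6 CPM in Pre-BMPs (reads per 1000000 of scaled library size, mean ± SD, n = 3) and at 1.56 ± 1.61 in Pro-BMPs. Cdh1 RNA was 147 ± 37.6 CPM in Pre-BMPs, which the labels give as lacking the protein, and 42.8 ± 11.7 in Pro-BMPs, which they give as bearing it.

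The 250 bases before the RefSeq start of 4 of the genes are shown because the results turn on them: Cma1 and Gzmb encode granule proteases that stood above both neighbours, and Slpi and Hk3 were among the genes furthest below both. Sequences are from RefSeq on build GRCm38.p6, 5′ to 3′ on the strand of the gene. All 4 lie on the minus strand: Cma1 at chr14:55944676-55944925, Gzmb at chr14:56262335-56262584, Slpi at chr2:164356508-164356757 and Hk3 at chr13:55021386-55021635.
Cma1: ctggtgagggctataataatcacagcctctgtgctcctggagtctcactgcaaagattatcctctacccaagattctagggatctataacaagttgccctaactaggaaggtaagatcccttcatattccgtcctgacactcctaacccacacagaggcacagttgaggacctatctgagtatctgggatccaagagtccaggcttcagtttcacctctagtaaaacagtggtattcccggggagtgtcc
Gzmb: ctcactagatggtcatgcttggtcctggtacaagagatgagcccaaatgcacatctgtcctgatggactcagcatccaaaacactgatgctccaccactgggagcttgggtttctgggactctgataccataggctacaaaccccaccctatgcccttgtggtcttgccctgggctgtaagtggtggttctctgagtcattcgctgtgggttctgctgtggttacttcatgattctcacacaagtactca
Slpi: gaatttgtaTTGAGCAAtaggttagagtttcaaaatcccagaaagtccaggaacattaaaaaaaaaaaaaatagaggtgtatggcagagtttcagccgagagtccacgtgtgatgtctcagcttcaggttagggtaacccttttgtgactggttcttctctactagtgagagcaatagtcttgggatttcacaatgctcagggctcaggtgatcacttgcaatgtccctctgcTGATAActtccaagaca
Hk3: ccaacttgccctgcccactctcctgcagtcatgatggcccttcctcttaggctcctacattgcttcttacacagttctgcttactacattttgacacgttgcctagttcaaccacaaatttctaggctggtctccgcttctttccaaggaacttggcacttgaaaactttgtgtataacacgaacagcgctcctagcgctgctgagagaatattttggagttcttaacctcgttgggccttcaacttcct
Capitals mark matches, on either strand, to a GATA motif (AGATAA or TGATAA) or a C/EBP motif (TTGCNNAA). The Slpi window held 1 of each, TTGAGCAA beginning 241 bases and TGATAA beginning 17 bases before the start, and the other 3 windows held neither. Of all 32851 RefSeq promoter windows of this length, 16.6% held the GATA motif and 9.56% the C/EBP motif. A match describes letters in the window, and says nothing of binding.

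Across all genes, 730 (5.01%) were higher and 886 (6.09%) lower in Pre-BMPs than the mean of both neighbours in limma's test at an adjusted p under 0.05. The contrast itself does not place Pre-BMPs outside both neighbours. Of the 730 higher genes, 314 had all Pre-BMP values above both neighbours, 184 had a mean above both with overlapping values, and 232 had a mean between the neighbours. Fcer1a is of the last kind: it was called higher in the contrast (log2 difference 3.04, SE 0.491, adjusted p = 0.00237) while basophils held 2862 ± 189 CPM. Of the 886 lower genes, 360 lay below both neighbours with all values, 321 by their means alone, and 205 lay between. In the genes between, basophils were the lower neighbour for 200 of the 232 higher calls, and Pro-BMPs for 188 of the 205 lower ones.

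The 314 genes above both neighbours and called were 2.16% of all genes, and the 360 below and called 2.47%. The choice and the call rest on the same values, so the calls do not support the choice. A stricter count asked for a call against each neighbour on its own. It gave 114 genes higher than both (0.783%) and 182 lower than both (1.25%), where 699 genes (4.8%) were higher and 683 (4.69%) lower against Pro-BMPs alone, and 2408 (16.5%) and 2019 (13.9%) against basophils alone. These comparisons share the Pre-BMP libraries. At the edge of the rule, Spns3 lay just inside on the upper side and Adamts3 just outside, with Pre-BMP means of 310.6 and 10.3 CPM. On the lower side Nploc4 lay just inside and Gys1 just outside, at 80.5 and 32.4 CPM.

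Depth limits the lower side. In 90 of the 561 genes below both neighbours, 28 of them called, every Pre-BMP library and at least 1 neighbour library had 0 reads. There the order came from the added 0.5 read divided by library sizes that differ, and those with no read in any basophil library form the flat row just under 0 in the plot of the differences from each neighbour. Without these ties 471 genes lay below both neighbours, 332 of them called. Scaling also mattered. With reads on listed genes as library size the median difference of all genes moved by 0.177 and the genes above and below became 965 and 319. The share of calls that were higher was 45.2% as deposited, 69.2% with that scaling and 57.6% with voom weights. Left without Pre-BMP replicate 1, 2 or 3, the higher calls were 394, 323 and 418. The lower calls were 547 without Pre-BMP replicate 2.

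**Figure D1:**
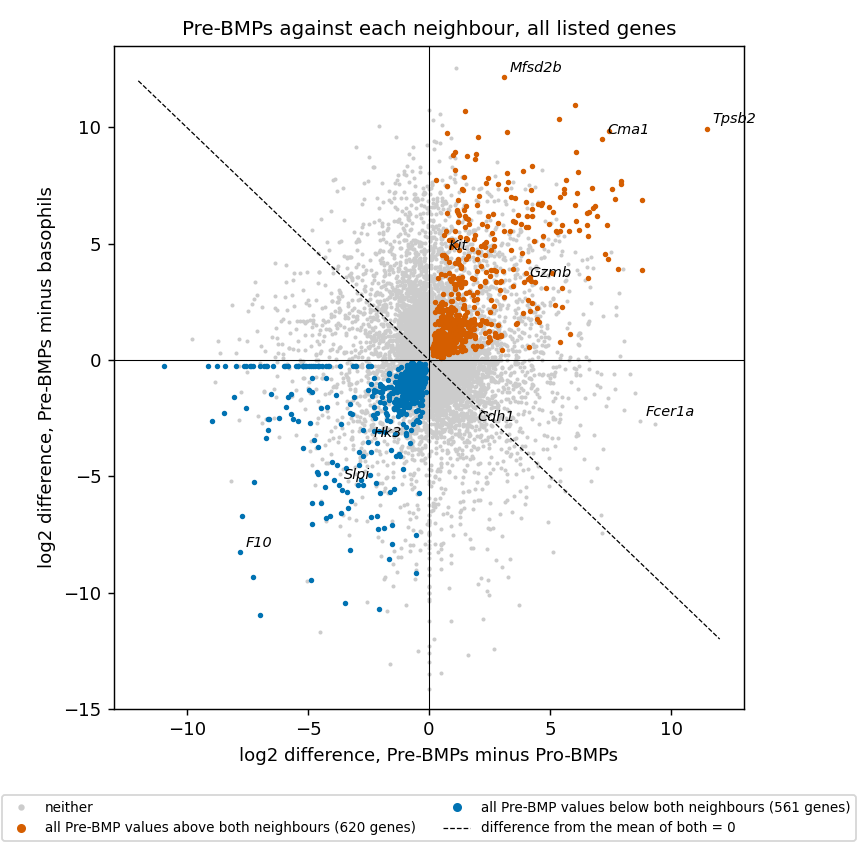
Each point is 1 of the 14560 listed genes, placed by its log2 difference between Pre-BMPs and Pro-BMPs (horizontal) and between Pre-BMPs and basophils (vertical). The 620 genes above both neighbours are in the upper right and the 561 below both in the lower left, while Fcer1a lies to the right of the dashed line of equal distance but below 0 against basophils.

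The named gene furthest above its nearer neighbour encodes a mast cell protease, and genes of 2 more proteases, Cma1 and Gzmb, were among the 15 called genes furthest above. Tpsb2, which encodes a tryptase of mast cell granules and lies at chromosome 17, 25366305 to 25369098 (GENCODE, GRCm38, plus strand), was at 24.7, 61.4 and 14.6 CPM in Pre-BMPs 1 to 3. It had no read in any Pro-BMP or DN-GMP library and 0.0231, 0 and 0.0461 CPM in basophils. All 3 Pre-BMP libraries stood apart from the rest, and among themselves they spread widely around 33.6 ± 24.6 CPM. The fitted difference from the mean of both neighbours was 10.71 log2 units (SE 0.887, adjusted p = 2.98e-05). Since Pro-BMPs had 0 reads, that value depends on the 0.5 read added. Against 3 reads per library, which a count of 0 allows, the Pre-BMP mean of Tpsb2 was at least 563-fold higher than that of Pro-BMPs, by counting error alone. Tpsg1, another tryptase, stood at 1.12, 9.43 and 1.07 CPM in Pre-BMPs and reached 3.04 in a basophil library, so its values overlapped.

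Cma1, the chymase of connective tissue mast cells (chromosome 14, 55941451 to 55944675, minus strand), was at 127, 227 and 68.1 CPM in Pre-BMPs. Pro-BMPs had 1.74, 0.69 and 0.547 CPM, and basophils 0.0463, 0.0463 and 1.57. The lowest Pre-BMP library lay far above the highest neighbour, and replicate 2 was the highest of the 3 for Cma1 as for Tpsb2. The difference was 8.32 log2 units (SE 0.999, adjusted p = 0.000349). Gzmb, granzyme B, a protease of cytotoxic lymphocytes that mast cells can also store, was at 223, 229 and 164 CPM in Pre-BMPs, against 11.6 to 15.1 in Pro-BMPs and 17.8 to 22.8 in basophils. DN-GMPs had no Gzmb read, which puts Pre-BMPs at least 3081-fold higher by counting error alone. Gzmb rose by 3.64 log2 units (SE 0.274, adjusted p = 1.43e-05) with a much smaller spread between libraries than the tryptase and the chymase.

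Cma1 and Gzmb bound 1 stretch of chromosome 14 (55941451 to 56262260) that holds many serine protease genes, chosen here after the values were seen. GENCODE places 26 genes in it, 15 of them protein-coding, and 6 were listed. Between the ends, Mcpt8, the basophil protease, climbed through the series: Pro-BMPs had 105 ± 8.11 CPM, Pre-BMPs 591 ± 53.6 and basophils 7330 ± 818. Ctsg, cathepsin G of neutrophil granules, went the other way: 682 ± 54 CPM in Pre-BMPs lay below 1566 ± 73.9 in Pro-BMPs and 1188 ± 195 in basophils (log2 difference -0.99, SE 0.0884, adjusted p = 4.73e-05). Gzmc and the pseudogene Gm5801 overlapped between populations. So within 1 stretch, 2 genes lay above both neighbours, 1 below and 3 on neither side. Mcpt1, Mcpt2, Mcpt4, Mcpt9 and Cma2 were not analysed here.

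Of 13 listed mast cell markers, 5 lay above both neighbours (Kit, Tpsb2, Cma1, Gata1 and Slc45a3) and 1, Maob, below as a tie at 0 reads. The share above was 38.5%, beside 4.26% of all genes, and the share below 7.69%, beside 3.85%. Tpsb2, Cma1 and Kit were called higher and none lower, with a list median of 1.19 log2 units against 0.08 for all genes. In the fit of the 9 libraries of the 3 populations alone, all 5 genes above were called. Tpsb2 and Cma1 were also named in advance as markers of the pattern, so they add nothing independent to this count or median. Kit, the receptor of stem cell factor, was at 381, 489 and 520 CPM in Pre-BMPs, 314, 290 and 304 in Pro-BMPs and 10.5 to 28.8 in basophils. Its difference was 2.55 (SE 0.282, adjusted p = 0.000191), and it came mainly from basophils, since Kit was not called against Pro-BMPs (log2 0.60, adjusted p = 0.304). Kit was also part of the gate. Cpa3, mast cell carboxypeptidase, rose in even steps of 686, 1568 and 3584 CPM and had a contrast of 0.00 (adjusted p = 0.996). Among 16 listed proteases and granule matrix genes, 3 were above (5 without basophil replicate 3) and 1 below, with 5 called higher and 2 lower (1 lower without Pre-BMP replicate 1 or 2). The shares were 18.8% above and 6.25% below, beside 4.26% and 3.85% of all genes. Those above were Tpsb2, Cma1 and Gzmb, and the markers Tpsb2 and Cma1 add nothing independent here either.

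Basophil markers lay outside both neighbours about as often as all genes did. None of 23 listed lay above both neighbours, beside 4.26% of all genes. Only 1, Cd69, lay below (4.35%, beside 3.85% of all genes). Prss34, a basophil protease, climbed along the series, and the 3 populations in order had 99.7 ± 46.6, 1117 ± 251 and 21666 ± 2001 CPM. Cd69, an early activation antigen of leukocytes, had 5.39, 18.8 and 14.8 CPM in Pre-BMPs, against 33.6 to 52.8 in Pro-BMPs and 80.3 to 114 in basophils (log2 difference -2.45, SE 0.347, adjusted p = 0.001). The list as a whole had 1 gene called higher (2 without DN-GMP replicate 1 or 2), 5 lower (3 without Pre-BMP replicate 1 or 2) and a median of -0.42. Summed over the list, Pre-BMPs held 4835 to 5970 CPM, between Pro-BMPs at 1424 to 1731 and basophils at 45098 to 48824.

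**Figure D2:**
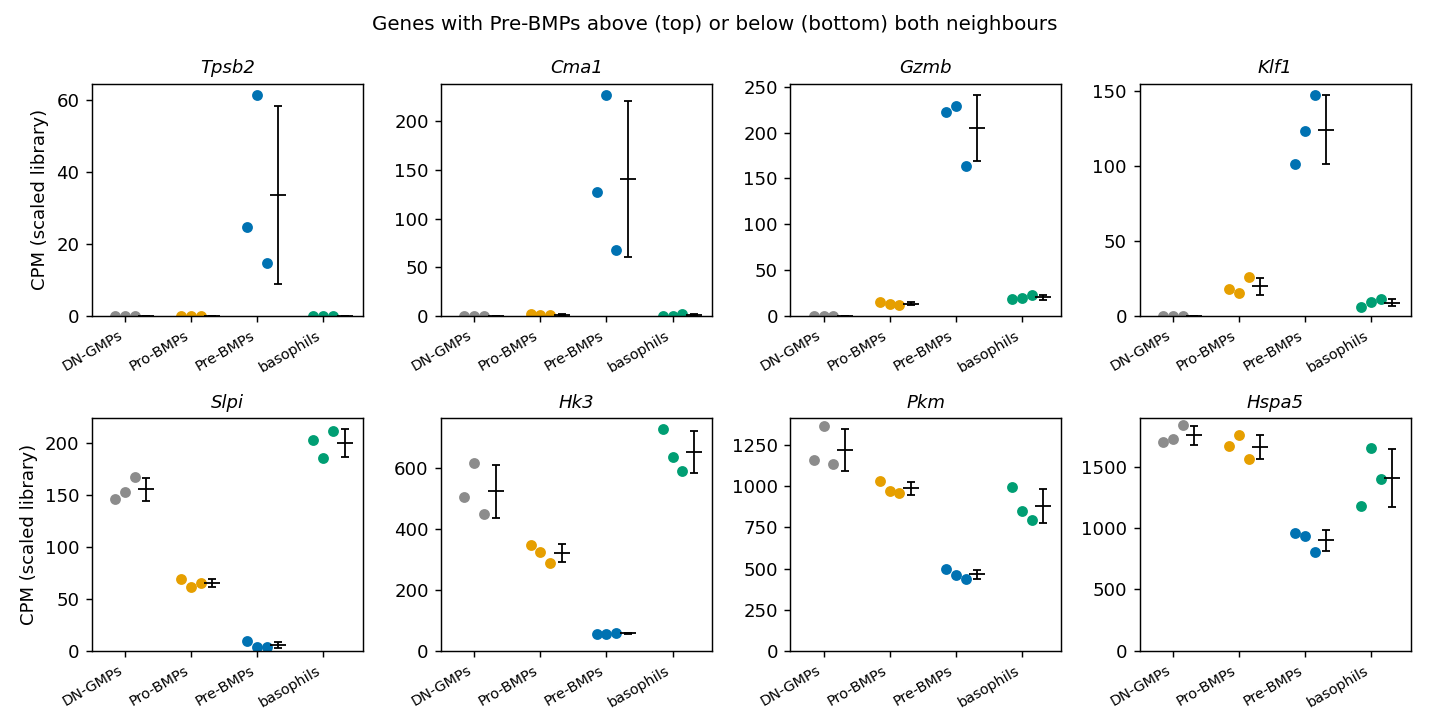
Points are the 3 libraries of each population in CPM of the scaled library size on linear axes from 0, with the mean and SD in black beside them. Tpsb2, Cma1, Gzmb and Klf1 (top) stand highest in Pre-BMPs, with 14.6 CPM as the lowest Pre-BMP value of Tpsb2, and Slpi, Hk3, Pkm and Hspa5 (bottom) stand lowest there.

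Some genes of the red cell line also stood above both neighbours. Of 20 listed megakaryocyte and erythroid genes, 9 lay above and none below, where 4.26% of all genes lay above. Of them 7 were called higher and none lower (4 higher when any 1 of the 3 Pre-BMP libraries was left out), and the median difference was 1.53. Klf1, the erythroid Kruppel-like factor, was at 101, 124 and 147 CPM in Pre-BMPs, 15.1 to 26 in Pro-BMPs and 5.94 to 10.9 in basophils. No value overlapped, and the difference of 3.26 (SE 0.611, adjusted p = 0.00559) stayed under the threshold in every alternative. Gata1, the factor shared by red cell, platelet, mast cell and basophil lines, was higher in Pre-BMPs (191 to 213 CPM) than in any Pro-BMP (43.5 to 63.9) or basophil library (120 to 179). The contrast of 1.19 had a wide error (SE 0.737, adjusted p = 0.364). DN-GMP libraries share in that error and held 0.467, 8.48 and 8.82 CPM. Gata1 was called in 3 of 21 alternatives, the fit of the 9 libraries alone among them, and the lowest adjusted p was 0.001. Zfpm1, the cofactor of GATA1, rose by 1.53 (SE 0.277, adjusted p = 0.00474). It was at 27.7, 36.25 and 35.3 CPM in Pre-BMPs, 16.8 to 27.1 in Pro-BMPs and 4.47 to 9.29 in basophils. The difference came mainly from basophils, since Zfpm1 was not called against Pro-BMPs (log2 0.55, adjusted p = 0.347).

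Carbonic anhydrases followed. Car2 was at 135, 143 and 147 CPM in Pre-BMPs against 43.9 to 53.5 and 32.6 to 45.8 in the neighbours, a rise of 1.69 (SE 0.224, adjusted p = 0.00064). Car1, an early red cell enzyme, was at 35.6, 81.7 and 72.6 CPM against at most 7.25 in Pro-BMPs and 3.01 in basophils. Its adjusted p of 0.0208 became 0.053, 0.0868 and 0.0745 without Pre-BMP replicate 1, 2 or 3. Epor, the erythropoietin receptor, was at 24.1, 19.5 and 29.1 CPM against at most 5.26 in either neighbour. Its call (adjusted p = 0.0391) was lost without any 1 of the Pre-BMP or Pro-BMP libraries, with adjusted p from 0.0614 to 0.125. The call was also lost in the fit of the 9 libraries alone (adjusted p = 0.0611) and with no mean-variance trend (0.0714). Against Pro-BMPs alone Epor was not called (adjusted p = 0.213).

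A second group, of red cell membrane and iron genes, was put together after values were seen and is only described. Of its 15 listed genes 11 lay above both neighbours (73.3%, beside 4.26% of all genes) and none below. Kel, a blood group protein, was at 41, 87.8 and 83.9 CPM in Pre-BMPs, 1.24 to 10 in Pro-BMPs and 7.15 to 16.8 in basophils. Icam4, a red cell adhesion protein, was at 85.4, 86.5 and 87.8 CPM, against 17.1 to 25.6 and 17 to 24.6. Both groups of neighbours lay well below the Pre-BMP values for each. Mfsd2b, the exporter of sphingosine-1-phosphate in red cells and platelets, was at 74.9, 174 and 144 CPM against 8.36 to 24.8 in Pro-BMPs and at most 0.138 in basophils. The group median was 3.06, or 1.99 with populations at 0 reads set to 3 reads per library.

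The products of mature red cells were low. Hba-a1, an alpha globin, was at 7.18, 2.82 and 0.842 CPM in Pre-BMPs, and Alas2, the first enzyme of red cell heme synthesis, at 0.834, 0.69 and 0.115. Reads that fit Hba-a1 and its near-identical copy would count as not unique and be left out, so its level may be understated. Both Hba-a1 and Alas2 overlapped with Pro-BMPs. Transferrin receptor (Tfrc) was at 51.5 CPM in Pre-BMPs and 127 in Pro-BMPs. The platelet genes were also low: Pf4 had 2.64, 5.71 and 9.69 CPM, Gp9 9.25, 10.8 and 10.4, and Vwf 1.48, 4.83 and 5.8. All 3 lay above both neighbours in their values, but Gp9 and Vwf were not called (adjusted p = 0.0634 and 0.0779), and Pf4 was called (adjusted p = 0.00038) without a call against Pro-BMPs (adjusted p = 0.144). Summed over the megakaryocyte and erythroid list, Pre-BMPs held 1561 to 1735 CPM, Pro-BMPs 672 to 734 and basophils 2051 to 2505, where Itga2b made up much of the basophil sum. Ter119 was in every gate. The part of cells of another type in these values was not tested.

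Eosinophil genes gave a smaller set. Of 11 listed genes, 3 lay above both neighbours (Ear1, Ear2 and Siglecf, or 6 genes without Pro-BMP replicate 3) and none below, with 5 called higher and none lower. The share above was 27.3%, beside 4.26% of all genes. Without Pre-BMP replicate 1 the number called was 3, and without replicate 2 or 3 it was 2. Ear2, an eosinophil ribonuclease, was at 60.3, 99.5 and 117 CPM in Pre-BMPs, 18.2, 17.8 and 36.8 in Pro-BMPs and 3 to 8.05 in basophils (log2 difference 3.15, SE 0.437, adjusted p = 0.000887). Ear genes are near-identical copies. Reads that fit more than 1 of them would count as not unique and be left out, so their levels may be understated. The major granule proteins did not separate: Epx had 348, 537 and 838 CPM in Pre-BMPs and up to 563 in Pro-BMPs, and Prg2 had 1456 to 2206 and 1223 to 1928. In the sum over the list, Pre-BMPs (2299 to 3845 CPM) overlapped with Pro-BMPs (2005 to 3149) and lay above basophils (1329 to 1723). DN-GMPs had 49.9 to 75.5.

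A part of the stem and progenitor genes also stood above both neighbours. Of 19 listed, 6 lay above (Kit, Meis1, Mycn, Sox4, Adgrg1 and Angpt1) and none below (1 without Pro-BMP replicate 3), with 8 called higher and none lower. The share above was 31.6%, beside 4.26% of all genes. The list median was 1.65, or 1.57 with populations at 0 reads set to 3 reads per library. Kit was part of the gate and was not called against Pro-BMPs (adjusted p = 0.304). Sox4, a transcription factor of immature cells, was at 228, 225 and 282 CPM in Pre-BMPs, 101, 103 and 112 in Pro-BMPs and 19.4 to 24.4 in basophils (log2 difference 2.34, SE 0.116, adjusted p = 9.79e-07). Meis1, a homeobox partner of HOXA9, had 63.8, 87.6 and 86.9 CPM against 23.9 to 32.7 and 19 to 24.8, a rise of 1.65 (SE 0.249, adjusted p = 0.00156). Angpt1, the ligand of the receptor TIE2, had 230, 242 and 280 CPM against 77.9 to 101 and 96.8 to 121, a rise of 1.35 (SE 0.168, adjusted p = 0.000438). The rest of the list did not stand out: Cd34 had means of 312, 281 and 31.5 CPM along the series, and Hlf, Erg and Mecom were lower in Pre-BMPs than in Pro-BMPs by their means. DN-GMPs, an earlier progenitor, had lower means than Pre-BMPs for all 6 genes above. For Kit, Meis1, Mycn, Sox4, Adgrg1 and Angpt1 they were 261, 25.2, 0.00686, 121, 275 and 23.7 CPM. Mycn was low in Pre-BMPs too, with a mean of 2.28 CPM, and lost its call in 6 alternatives.

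Adgrg1 (GPR56), an adhesion receptor, was abundant in both populations with FceRIa, at 842 to 967 CPM in Pre-BMPs and 606 to 677 in basophils, with 401 to 488 in Pro-BMPs. It rose by 0.75 (SE 0.0757, adjusted p = 9.63e-05) and was called against each neighbour. Stat5a, a signal transducer of cytokine receptors, was at 146, 151 and 161 CPM against 70.9 to 87.8 and 57.8 to 96.1, a rise of 0.96 (SE 0.152, adjusted p = 0.00203). Among 19 adhesion genes, Itga4, the alpha4 integrin chain, had 222, 230 and 336 CPM in Pre-BMPs, 105 to 139 in Pro-BMPs and 23.2 to 37.7 in basophils (log2 difference 2.11, SE 0.192, adjusted p = 5.35e-05). All Pre-BMP values of these 3 genes stood clear of both neighbours. Itga5 was the other adhesion gene above both, and its call (adjusted p = 0.0398) was lost in 10 alternatives. The share of adhesion genes above was 10.5%, beside 4.26% of all genes.

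Other genes far above both neighbours belong to no single group. Cx3cr1, the fractalkine receptor of monocytes, was at 100, 130 and 145 CPM in Pre-BMPs, 11.4 to 25.9 in Pro-BMPs and 6.06 to 18.2 in basophils (log2 difference 3.29, SE 0.387, adjusted p = 0.000304). It was the only 1 of 11 listed monocyte and dendritic cell genes above both, and F13a1 of the same list lay below both (2 genes below without Pre-BMP replicate 3). Trib2, a pseudokinase, was at 32.5, 44.5 and 58.9 CPM against at most 5.34 in Pro-BMPs and 0.0692 in basophils. Abcb4, a phospholipid transporter, was at 26.7, 30.9 and 26.6 CPM against at most 4.25 and 0.347. Aqp1, a water channel of red cells, was at 4.33, 17.5 and 14.9 CPM, with 3.88 as the highest Pro-BMP value and no read in basophils. The remaining genes among the 15 furthest above were Lrrc66, Mpp4, Angptl2, Parm1, the T-cell receptor segment Trbv13-2 and Gm17590, with Pre-BMP means of 10.8 to 167 CPM. Against Pro-BMPs alone, Trib2, Abcb4, Angptl2, Parm1 and Trbv13-2 were not called (adjusted p = 0.093, 0.0949, 0.135, 0.0858 and 0.0514). Nor were Car1 (0.223) and Mfsd2b (0.0503). The contrast call of Mpp4 was lost without Pre-BMP replicate 2, and that of Angptl2 without replicate 2 or 3. Trbv13-2 lost its call without any 1 Pre-BMP library or without Pro-BMP replicate 2.

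**Figure D3:**
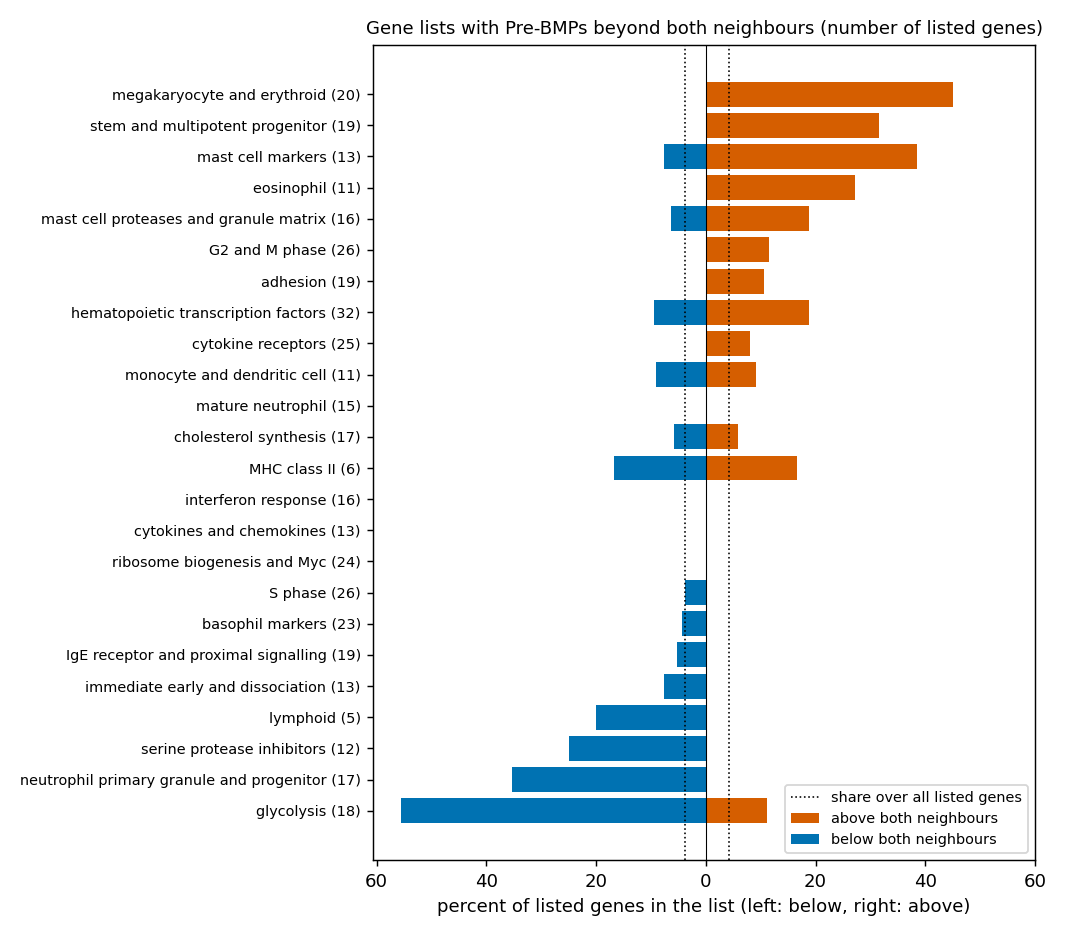
Bars give the percent of each gene list with all Pre-BMP values above (right) or below (left) both neighbours, with the number of listed genes in brackets, and dotted lines give the share over all listed genes, 4.26% above and 3.85% below. The megakaryocyte and erythroid list reaches 45% above and glycolysis 55.6% below.

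The genes furthest below both neighbours included granule, lysosome and innate immune genes, among others. Slpi, the secretory leukocyte protease inhibitor, which blocks neutrophil elastase and chymases (chromosome 2, 164354070 to 164389095, minus strand), was at 9.11, 3.28 and 3.81 CPM in Pre-BMPs. Pro-BMPs had 68.7, 60.8 and 64.8 CPM and basophils 202, 185 and 211. Both neighbours were tight and far above Pre-BMPs, and so were DN-GMPs at 146, 153 and 167 CPM. Slpi fell by 4.55 log2 units (SE 0.259, adjusted p = 1.94e-06). In the list of 12 serine protease inhibitors, Serpinb1a and Serpine2 also lay below both neighbours and none above. With Slpi the share below was 25%, beside 3.85% of all genes. Slpi itself was named in advance as a marker of the pattern, so it adds nothing independent to this list. Serpinb1a, an inhibitor of neutrophil proteases, fell by 1.03 against the mean of both neighbours (SE 0.0803, adjusted p = 1.95e-05). It was at 230 ± 21.4 CPM in Pre-BMPs, 586 ± 52.8 in Pro-BMPs and 376 ± 35.2 in basophils. Serpine2 fell by 1.75 (SE 0.126, adjusted p = 1.15e-05).

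Of 17 neutrophil primary granule and progenitor genes, 6 lay below both neighbours (Ctsg, Hp, Slpi, Hk3, Igsf6 and Clec12a) and none above, where 3.85% of all genes lay below. Of the list, 10 were called lower and 2 higher (1 higher, or 0 without Pre-BMP replicate 1 or 3, when any 1 library other than basophil replicate 1 or 3 was left out), with a median of -0.99. Slpi and Hk3 are in this list and were also named in advance as markers of the pattern, so they add nothing independent to it. Hp, haptoglobin, was at 15.4, 17.3 and 14.1 CPM in Pre-BMPs, 191, 228 and 246 in Pro-BMPs and 42 to 45.8 in basophils (log2 difference -2.66, SE 0.125, adjusted p = 9.51e-07). Clec12a, an inhibitory lectin receptor, was at 171, 140 and 160 CPM while both neighbours and DN-GMPs lay between 518 and 652. Mpo, Elane and Prtn3, granule enzymes too, had another shape, a fall along the series: Mpo had 10828, 4386 and 2362 CPM, Elane 3988, 378 and 18.4, and Prtn3 1864, 284 and 18.1 in Pro-BMPs, Pre-BMPs and basophils. Summed, Pre-BMPs held 6712 to 7959 CPM of the list, Pro-BMPs 21299 to 23663 and basophils 6068 to 7112.

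Further genes far below both neighbours were measured in all 3 other populations. Pglyrp1, a peptidoglycan recognition protein, was at 35.8, 23.8 and 25.3 CPM in Pre-BMPs, 140, 150 and 148 in Pro-BMPs and 404 to 455 in basophils (log2 difference -3.16, SE 0.145, adjusted p = 9.51e-07). Aoah, a lysosomal enzyme that inactivates bacterial lipopolysaccharide, was at 0.956, 1.15 and 0.134 CPM against at least 10.6 in either neighbour. Lyst, the regulator of lysosome size, was at 1.06, 9.62 and 7.08 CPM against 14.6 to 44.8 and 103 to 196. None of these values overlapped with a neighbour's, and DN-GMPs too were higher for each. F10, coagulation factor X, had a read in only 1 Pre-BMP library (1.85 CPM) against 6.22 to 26.5 and 13.3 to 24. F13a1, a coagulation factor of monocytes and platelets, fell by 2.87 (SE 0.387, adjusted p = 0.000702, and 0.0522 with voom weights), and DN-GMPs held 627 ± 154 CPM of it. The remaining genes among the 15 furthest below were Abcd2, Gda and the pseudogenes Nxpe1-ps and Gm1966, with Pre-BMP means of 2.27 to 13.2 CPM. Nxpe1-ps was not called against Pro-BMPs alone (adjusted p = 0.106). Its contrast call was lost with no mean-variance trend (adjusted p = 0.0559).

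Ckap4, a protein of the rough endoplasmic reticulum (ER), was at 35.8, 32.2 and 26.4 CPM in Pre-BMPs and between 134 and 167 in both neighbours, a fall of 2.22 log2 units (SE 0.118, adjusted p = 1.18e-06). A list of 26 ER chaperone and folding genes, put together after values were seen, had 17 below both neighbours and none above, 21 called lower and none higher, and a median of -0.61. The share below was 65.4%, beside 3.85% of all genes. This list had 11 below with reads on listed genes as library size and 13 with quantile normalization. Hspa5 (BiP), the main ER chaperone, was at 962, 937 and 802 CPM in Pre-BMPs, 1666, 1761 and 1561 in Pro-BMPs and 1178, 1652 and 1404 in basophils (log2 difference -0.76, SE 0.0936, adjusted p = 0.000407). Sdf2l1, an ER cochaperone, was at 141, 145 and 106 CPM against 319 to 374 and 205 to 297 (log2 difference -1.17, SE 0.129, adjusted p = 0.000185). Calr was an exception: calreticulin fell along the series, with 1936, 1361 and 1022 CPM by means. Summed over the 26 genes, Pre-BMPs held 8050 to 8717 CPM, below every Pro-BMP (12231 to 13235) and basophil library (10402 to 12029).

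Glycolysis, the breakdown of glucose to pyruvate and lactate in the cytosol, gave the highest share below both neighbours among the lists of 5 or more genes, those put together after values were seen aside. Of 18 listed transporters and enzymes, 10 lay below (55.6%, beside 3.85% of all genes) and 2 above (11.1%, beside 4.26%). Of the list, 11 were called lower and 2 higher, and the median was -0.60. None was called higher without Pre-BMP replicate 1 or 3 or Pro-BMP replicate 3, and 1 without Pre-BMP replicate 2, Pro-BMP replicate 1 or basophil replicate 1 or 2. With quantile normalization 7 lay below, and with reads on listed genes as library size 8. Hk3 is in this list and was also named in advance as a marker of the pattern. It adds nothing independent to these counts or to the share. At the entry step 3 hexokinases, which phosphorylate glucose, parted. Hk3 (chromosome 13, 55005985 to 55021385, minus strand), a myeloid hexokinase, was at 55.7, 55.2 and 58 CPM in Pre-BMPs, 348, 323 and 289 in Pro-BMPs and 729, 637 and 590 in basophils. It was the most even of the genes far below both neighbours, and fell by 3.02 log2 units (SE 0.105, adjusted p = 1.06e-07). Hk2 was at 27.6, 28.7 and 21.3 CPM against 33.7 to 40.5 and 151 to 167, a fall of 1.60 (SE 0.144, adjusted p = 5.11e-05). Hk1, the widespread hexokinase, went up: 401, 316 and 344 CPM against 225 to 235 and 254 to 265 (log2 difference 0.52, SE 0.13, adjusted p = 0.0257, and 0.125 without Pre-BMP replicate 1, 0.0695 without replicate 3 and 0.0508 without Pro-BMP replicate 3).

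Phosphofructokinase, the committing step, parted in the same manner in its subunits Pfkp and Pfkm, while Pfkl lay on neither side of both neighbours. The platelet-type subunit Pfkp was at 101, 85.9 and 73.6 CPM in Pre-BMPs, 141 to 151 in Pro-BMPs and 603 to 750 in basophils, a fall of 1.88 (SE 0.105, adjusted p = 1.62e-06). The muscle-type subunit Pfkm was at 37.3, 25.6 and 35.5 CPM against 9.15 to 16.8 and 9.3 to 24.5. Its adjusted p of 0.0378 ranged up to 0.139 and was lost without any 1 Pre-BMP library, so the order of values is firmer than the call. After this step no enzyme lay above both neighbours. Pkm, pyruvate kinase, was at 495, 459 and 438 CPM against 960 to 1035 and 793 to 996 (log2 difference -1.01, SE 0.0799, adjusted p = 2.1e-05). Eno1, enolase, was at 373, 355 and 334 CPM against 509 to 590 and 483 to 565, a fall of 0.57 (SE 0.0712, adjusted p = 0.000446). Pgam1 and Aldoa fell by 0.83 and 0.70, and Gpi1, which acts before phosphofructokinase, fell by 0.94.

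Ldha and Pgk1 were closer to the edge. Ldha, lactate dehydrogenase, was at 1045, 1014 and 860 CPM in Pre-BMPs and 1059 to 1197 in Pro-BMPs, and its adjusted p of 0.000583 became 0.301 with quantile normalization. Pgk1 had an adjusted p of 0.0243, and 0.0515, 0.0837 and 0.0925 without Pre-BMP replicate 1, 2 or 3. With reads on listed genes as library size its difference was -0.21 (adjusted p = 0.187), and quantile normalization and a fit with no mean-variance trend gave adjusted p of 0.0832 and 0.0778. Gapdh, Tpi1 and Aldoc were on neither side of both neighbours, nor were the glucose transporters Slc2a1 and Slc2a3, whose means were higher in basophils than in Pre-BMPs. Summed over the 18 genes, Pre-BMPs held 4296 to 5017 CPM, Pro-BMPs 6726 to 7134, basophils 7505 to 8476 and DN-GMPs 7587 to 8380. All 3 Pre-BMP libraries thus had the lowest sums of the 12.

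**Figure D4:**
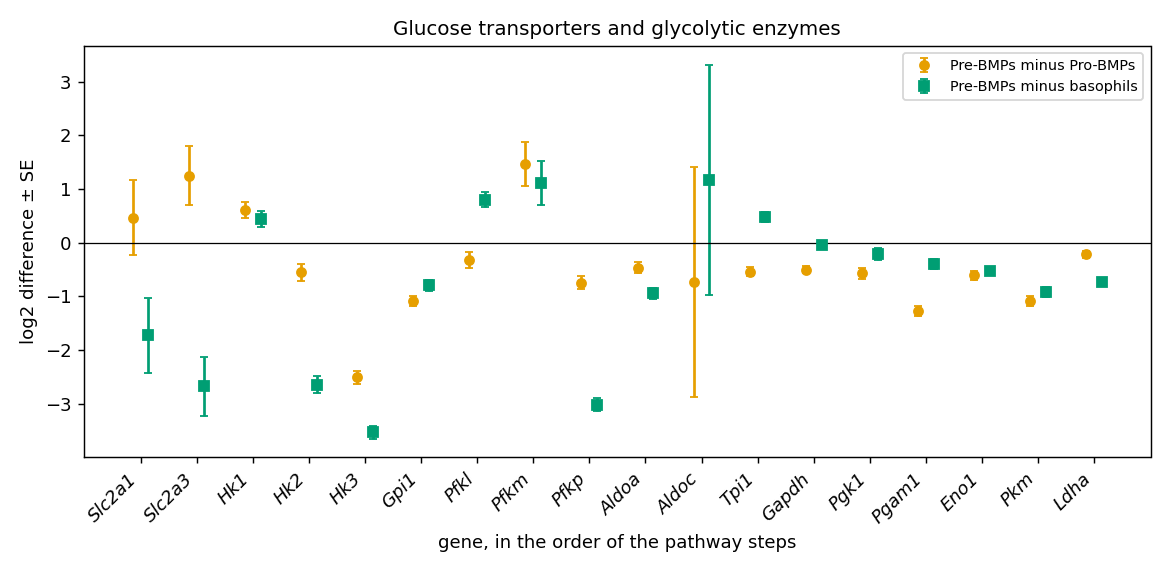
Points are log2 differences with SE for glucose transporters and glycolytic enzymes in the order of the pathway, Pre-BMPs minus Pro-BMPs (circles) and minus basophils (squares). Both differences lie below 0 for 10 genes with separate values, such as Hk3 at -2.50 and -3.53, and above 0 for Hk1 and Pfkm.

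Subunits of the phagocyte NADPH oxidase, which makes superoxide, were looked at after values were seen. Of 7 listed genes, 3 lay below both neighbours (Ncf1, Ncf4 and Hvcn1, or 5 genes without Pre-BMP replicate 1), 6 were called lower and 1, Cybb, higher. The share below was 42.9%, beside 3.85% of all genes. Ncf1, a cytosolic subunit, was at 45.4, 35.6 and 60.2 CPM in Pre-BMPs, 113 to 156 in Pro-BMPs and 599 to 768 in basophils (log2 difference -2.72, SE 0.17, adjusted p = 3.69e-06). Hvcn1, the proton channel that balances the charge of the oxidase, was at 15.4, 9.81 and 12.3 CPM against 30.5 to 32.8 and 181 to 241 (log2 difference -2.74, SE 0.177, adjusted p = 5.04e-06). Cybb, the catalytic subunit, had a mean of 12 CPM among Pro-BMPs, 5.73 among Pre-BMPs and 0.0154 among basophils.

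Among 32 transcription factors, 6 lay above both neighbours and 3 below (5 without Pre-BMP replicate 2), with 9 called higher (5 without Pre-BMP replicate 3) and 8 lower. The share above was 18.8%, beside 4.26% of all genes, and the share below 9.38%, beside 3.85%. Those above were Gata1, Klf1, Zfpm1, Meis1, Stat5a and Ikzf2. Those below were Spi1, Cebpd and Lyl1. Spi1 (PU.1), the master factor of myeloid cells, was at 136, 119 and 110 CPM in Pre-BMPs, 212 to 242 in Pro-BMPs and 279 to 353 in basophils (log2 difference -1.13, SE 0.101, adjusted p = 4.73e-05). Cebpd was at 24.1, 20.2 and 28.3 CPM against 41.4 to 55.9 and 68.9 to 87.5, a fall of 1.39 (SE 0.155, adjusted p = 0.0002). Lyl1 was at 3.66, 5.1 and 5.57 CPM against 13.2 to 21.3 and 8.63 to 15.3, a fall of 1.52 (SE 0.285, adjusted p = 0.00553). Gata2 was not among either set: it climbed from 164 to 770 to 2104 CPM by means.

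Cell cycle genes showed little with the deposited scaling. Of 26 genes of G2 and M phase, 3 lay above both neighbours (Bub1b, Cenpa and Ube2c) and none below, with 6 called higher (from 1 without Pre-BMP replicate 2 to 8 without replicate 1, and 2 without Pre-BMP replicate 3 or Pro-BMP replicate 1). The share above was 11.5%, beside 4.26% of all genes. The count above was 14 with quantile normalization and 15 with reads on listed genes as library size, so it depends on scaling. Calls higher also numbered 14 and 15 with these scalings, and 11 with voom weights. The count above was 13 without Pre-BMP replicate 1 and 7 without Pro-BMP replicate 2 or without basophil replicate 2 or 3. Cenpa, the centromere histone, was at 295, 344 and 367 CPM against 171 to 196 and 154 to 245, a rise of 0.83 (SE 0.148, adjusted p = 0.00429). Of 26 S phase genes only Rrm2, a subunit of the enzyme that makes deoxynucleotides, lay outside both neighbours. It was at 146, 125 and 133 CPM against 249 to 291 and 256 to 368, a fall of 1.11 (SE 0.109, adjusted p = 8.29e-05). Without Pre-BMP replicate 1 there were 3 S phase genes below, and without basophil replicate 1 or 3 there were 2. Ribosome biogenesis genes lay between, with none of 24 outside both neighbours and 9 called higher in the contrast (3 and 4 without Pre-BMP replicate 1 or 2). Pro-BMPs had a sum of 4825 to 5103 CPM, Pre-BMPs 3151 to 3552 and basophils 1281 to 1392.

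DN-GMPs, the earliest of the 4 populations, took no part in the rule that places genes above or below both neighbours. Their libraries do share in the spread behind the calls, and the comparison shares the Pre-BMP libraries. Of the 620 genes above both neighbours, 459 (74.0%) had all 3 DN-GMP values below all 3 Pre-BMP values, 8 had all above and 153 overlapped. Of the 561 genes below, 388 (69.2%) had all DN-GMP values above, 4 all below and 169 overlapped. Of the 314 genes above both neighbours and called, 264 (84.1%) had all 3 DN-GMP values below all 3 Pre-BMP values, 5 had all above and 45 overlapped. Of the 360 genes below and called, 288 (80%) had all DN-GMP values above, 2 all below and 70 overlapped. Over all listed genes DN-GMPs lay below in 2909, above in 2790 and overlapped in 8861 (60.9%), which is no reference for genes chosen because Pre-BMP values are extreme. Among the exceptions, Pf4 was higher in DN-GMPs (14.4 to 43.3 CPM) than in Pre-BMPs, while H2-Aa had no read in either.

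**Figure D5:**
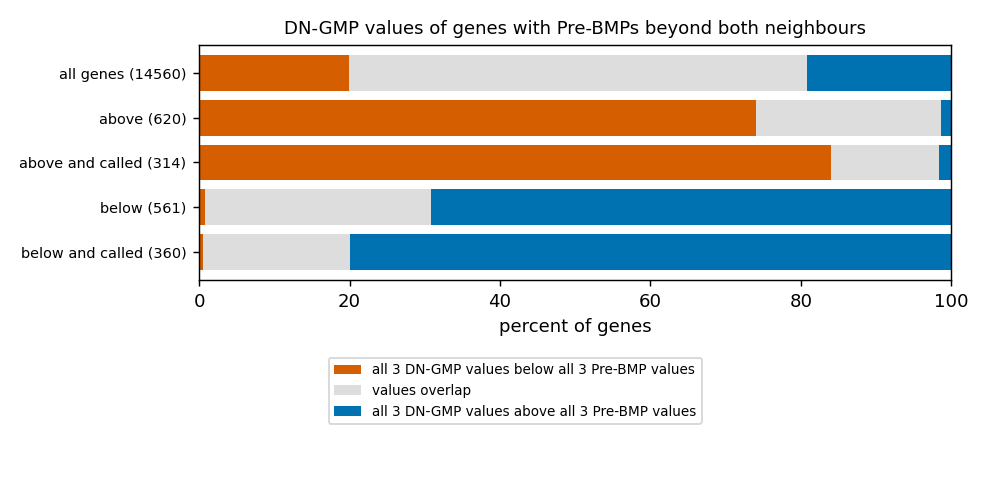
Bars give the percent of genes whose 3 DN-GMP values all lay below (orange), overlapped with (grey) or all lay above (blue) the 3 Pre-BMP values, for all genes and for genes outside both neighbours, with their numbers in brackets. DN-GMPs lie on the same side as the neighbours for 74.0% of genes above, 69.2% of genes below, 84.1% of genes above and called and 80% of genes below and called.

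Pre-BMP libraries held 35602065 to 37458352 reads on listed genes, within the 34195323 to 42502405 of Pro-BMPs and below the 38246380 to 39471460 of basophils. A count of 0 allows 3 reads, or 0.0512 to 0.0745 CPM, by counting error only. Reads on no annotated feature made up 9.15% to 10.2% in Pre-BMPs, 7.69% to 8.42% in Pro-BMPs and 11.2% to 12.6% in basophils. Listed genes at 0 reads numbered 644 to 765 in Pre-BMPs, 662 to 1019 in Pro-BMPs and 959 to 1338 in basophils. In a principal component analysis of 8128 genes, the first component (61.2% of variance) placed Pre-BMPs between Pro-BMPs and basophils. The second component (15.4% of variance) set Pre-BMPs apart from both neighbours, and Pro-BMPs lay between Pre-BMPs and basophils on it. Pairs of libraries of a population correlated at 0.913 to 0.95, and no Pre-BMP library stood apart from its group.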

How the data were processed

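RNA was measured in 12 libraries, 3 per population. Per the labels' protocols the kits were SmartSeq v4 and Nextera XT, which keep no strand, so overlapping antisense genes share reads. What the authors deposited are log2 values per gene and library. Per the submitters' processing notes, Trimmomatic, STAR, HTSeq and deepTools were used. The sources used here do not give their versions, the genome build or the annotation. From the values, the deposited log2 numbers are of reads plus 0.5 per 1000000 of a scaled library size: whole reads came back within 0.001 for 100% of values. The scaled sizes ran from 40263971 to 58553590, and 3 rows that name no gene (reads on no feature 6.65% to 12.6%, ambiguous 3.63% to 4.14%, not unique 8.51% to 12.1% of reads) were left out.

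The members and gene lists were chosen with earlier results of these data known. Models were fitted with limma 3.58.1 in R 4.3.3, with 1 mean per population over all 12 libraries, a mean-variance trend and no block, two-sided, with Benjamini-Hochberg adjustment over 14560 genes and calls at an adjusted p under 0.05. The fit was tested on simulated data. CPM are printed without the added 0.5 read, while log2 differences are on the deposited scale, so for low genes they can differ from ratios of printed means. Named genes were the 15 above and 15 below with the largest difference from the nearer neighbour among called genes of at least 10 CPM, every member of 25 gene lists outside both neighbours, Tpsb2, Cma1, Slpi, Hk3 and the sorting markers. Further genes, and 7 added lists, were chosen after their values were seen. Levels are not per gene length, so values are compared within a gene. Of the gene IDs, 14515 matched GENCODE and 45 did not. Names of 2189 listed genes came from a table of gene names. Promoter windows matched 832 of 1181 members (70.5%), too few for a share of members with a motif, and none was matched to Tpsb2. Alternatives were 21 fits with other normalizations, filters, weights or libraries, and a count without ties at 0 reads, added after seeing the data. Shared replicate numbers did not meet the rule set for pairing.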

Additional observations from a re-analysis of the deposited data

How the results depend on the processing

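Counts moved with scaling, weighting and the Pre-BMP libraries. With reads on listed genes as library size, 1379 genes were called higher, 965 lay above and 319 below both neighbours, 547 lay above and 233 below and were called, and 186 were higher than each neighbour. With voom weights 1146 were called higher and 234 were higher than each neighbour. Leaving out 1 library at a time, calls ranged from 323 to 820 higher and 547 to 911 lower, genes above from 620 to 996 and below from 561 to 874, above and called from 183 to 350, below and called from 294 to 390, and called against each neighbour from 57 to 124 higher and 124 to 185 lower. Single Pre-BMP libraries moved counts by over 1.5 times: above and called was 183 without replicate 2 and 209 without replicate 3, genes above were 996 without replicate 1, and genes below were 872, 851 and 874 without replicate 1, 2 or 3. Genes higher than each neighbour were 73, 66 and 57 without these, and 71 without Pro-BMP replicate 2. With fewer Pre-BMP values the rule is easier to meet by construction.

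Same-numbered libraries of different populations correlated in their deviations at -0.123 to 0.127, with 2 of 18 pairs over 0.1, short of the rule of every pair over 0.1 by which numbers were to count as pairing. Between Pre-BMPs and Pro-BMPs the same-numbered libraries gave 0.0486, 0.108 and 0.127 and the differently numbered ones -0.108 to 0.00153, so within these 2 populations each library correlated best with its own number, a hint from the data and not from the design. With the replicate block, 624 genes were called higher and 764 lower. Of the 86 named genes, 75 were called, and 58 of these kept their call in every alternative. Itga2, not called, changed sign when Pro-BMP replicate 1 or 3 was left out (0.21 and 0.17, range -1.62 to 0.21). Of the 1800 other values of named genes, 1694 kept direction and side of the threshold, 77 lost the call and 27 gained it. Causes were not tested.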

Other observations

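Other groups were counted in the same way. Over all genes, 4.26% lay above both neighbours and 3.85% below, with 5.01% called higher and 6.09% lower. Of 305 zinc finger genes with a numbered Zfp symbol, 21 (6.89%) lay above both neighbours and 3 (0.984%) below. Of these 305 genes, 23 were called higher and 3 lower (5 lower without Pre-BMP replicate 1 or basophil replicate 1). Without Pre-BMP replicate 1, 2 or 3 the calls higher were 10, 8 and 11 and the genes above 38, 37 and 33, which was 34 without Pro-BMP replicate 2. Genes below were 8, 5 and 5 without Pre-BMP replicate 1, 2 or 3, 6 without Pro-BMP replicate 2 or 3 and 5 without basophil replicate 1. Of 15 V-ATPase subunit genes, which pump protons into granules and lysosomes, none lay above and 5 below, with 5 called lower (3 without Pre-BMP replicate 1 or 3). Both lists were chosen after values were seen. Of 17 cholesterol synthesis genes 1 lay above and 1 below, and of 16 interferon response genes and 13 cytokine and chemokine genes none lay outside both neighbours. Among 15 listed genes of glutathione and peroxide metabolism 1 lay above and 2 below, and among 7 of the pentose phosphate pathway, which branches from glycolysis, 1 lay below. Of 19 IgE receptor and signalling genes only Plcg2 lay outside both neighbours, below, with an adjusted p of 0.0603. Leaving out 1 library added at most 1 gene to the counts above and below of the cholesterol, interferon, cytokine and chemokine, pentose phosphate and IgE lists, and 2 to the glutathione list, which had 3 above without Pro-BMP replicate 2. Of 13 immediate early genes, a group that can respond to cell handling, Zfp36 lay below both neighbours (1.55, 0.633 and 2.3 CPM in Pre-BMPs, 2.65 to 4.81 in Pro-BMPs and 52.3 to 81.7 in basophils), and none lay above (1 above without Pro-BMP or Pre-BMP replicate 3, and 2 below without Pro-BMP replicate 2 or Pre-BMP replicate 1 or 3). None of 15 mature neutrophil genes lay outside both neighbours with all libraries, but 4 lay above without Pre-BMP replicate 3, 3 above without Pro-BMP replicate 1 and 2 below without Pre-BMP replicate 1 or 2. Of 6 MHC class II genes, H2-DMa lay above both neighbours and H2-Aa, a tie at 0 reads with basophils, below. Of 5 lymphoid genes 1, Cd79b, lay below, and of 25 cytokine receptor genes 2, Kit and Epor, lay above.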
